A study of Mus musculus with 7 samples.

Results

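Regions with at least 2-fold more RelA than RelB signal after 1 h of lipopolysaccharide (LPS) made up 4286 of the 93611 regions measured by ChIP-seq in mouse bone marrow-derived dendritic cells (BMDCs). They were chosen by measured values, namely RelA in wild-type (WT) cells at 4 RPKM or more (reads scaled by region length and library size), at least 2-fold above input and at least 2-fold above RelB of the same cells and time, with 0.5 RPKM added to each value. These members were 4.58% of all regions. Of the 58695 regions that met the first 2 conditions, 52042 had RelA within 2-fold of RelB and 2367 had RelB at least 2-fold above RelA, and both sets serve as comparisons. The members' values of WT RelA and WT RelB at 1 h and of input are therefore a description and support nothing.

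RelA and RelB belong to NF-kB, a family of dimers that recognise related kB sites. RelA, usually paired with the Nfkb1 product, is held in the cytoplasm by inhibitory IkB proteins until signals such as LPS release it, and it carries the rapid inflammatory response. RelB pairs with products of Nfkb1 or Nfkb2, is released slowly by the noncanonical pathway, and is abundant in dendritic cells, where it is needed for their development and maturation.

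The study asked how loss of RelB changes where RelA binds. All cells were of the C57BL/6 strain, were cultured from marrow with the growth factors GM-CSF (20 ng/mL) and IL-4 (10 ng/mL), and were either WT or RelBko, that is without RelB. The 6 ChIP libraries were WT RelB without treatment (0 h), WT RelB after 1 h of LPS at 10 ng/mL, WT RelA after 1 h of LPS, RelBko RelB without treatment, RelBko RelB after 1 h of LPS, and RelBko RelA after 1 h of LPS. The last library was input from WT cells, with no time given. Each group held 1 library, so no difference has a replicate check, and RelA and RelB libraries also differ in the antibody used. How the RelB deletion was made is not given in the sources used here, and the treatment text names a CpG oligonucleotide reagent beside LPS.

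The libraries held 13188833 to 35064429 reads. In the regions fell 37.2% to 42.4% of the reads of the WT libraries and of RelBko RelA, 7.41% and 4.62% of those of RelBko RelB at 0 and 1 h, and 3.52% of those of the input. A ChIP library does not measure expression, so markers of dendritic cells could not be checked. Over the members the median number of reads was 56 in WT RelA (12 to 1414), 58 in RelBko RelA, 29 and 32 in WT RelB at 1 and 0 h, 7 and 9 in RelBko RelB, and 5 in input.

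Promoter sequence is shown first for 5 genes with a member at the transcription start site (TSS), because they span the forms found among member promoters. Each line gives the 250 bases before the start, 5′ to 3′ on the gene's strand, from RefSeq on GRCm38.p6. The regions themselves are in mm9 and were matched by gene symbol. Capitals mark matches to GGNNNTTCC on either strand, a loose kB site. Cxcl2, a neutrophil-attracting chemokine and a textbook NF-kB target, lies at chr5:90903649-90903898. Tgfb1, which encodes an anti-inflammatory cytokine, lies at chr7:25686752-25687001, and Batf, an AP-1 family factor of dendritic cells, lies at chr12:85686470-85686719, all 3 on the plus strand. On the minus strand are Nfkbib, which encodes the inhibitor IkB beta, at chr7:28766645-28766894, and Nr1h2, the oxysterol receptor LXR beta, at chr7:44553966-44554215.
Cxcl2: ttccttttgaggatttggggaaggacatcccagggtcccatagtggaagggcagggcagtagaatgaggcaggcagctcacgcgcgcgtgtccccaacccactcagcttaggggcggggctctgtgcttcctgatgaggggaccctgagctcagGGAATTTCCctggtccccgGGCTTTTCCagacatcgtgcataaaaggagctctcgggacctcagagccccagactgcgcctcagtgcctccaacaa
Nr1h2: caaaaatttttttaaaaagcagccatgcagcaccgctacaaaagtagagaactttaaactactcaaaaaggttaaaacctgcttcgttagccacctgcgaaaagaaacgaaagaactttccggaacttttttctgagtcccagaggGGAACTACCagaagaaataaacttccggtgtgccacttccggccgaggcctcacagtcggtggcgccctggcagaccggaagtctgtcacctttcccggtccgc
Tgfb1: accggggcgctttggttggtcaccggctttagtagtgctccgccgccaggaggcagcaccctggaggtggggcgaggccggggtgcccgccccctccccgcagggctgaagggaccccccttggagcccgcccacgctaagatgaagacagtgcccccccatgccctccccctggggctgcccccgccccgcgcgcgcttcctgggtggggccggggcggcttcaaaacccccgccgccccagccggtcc
Nfkbib: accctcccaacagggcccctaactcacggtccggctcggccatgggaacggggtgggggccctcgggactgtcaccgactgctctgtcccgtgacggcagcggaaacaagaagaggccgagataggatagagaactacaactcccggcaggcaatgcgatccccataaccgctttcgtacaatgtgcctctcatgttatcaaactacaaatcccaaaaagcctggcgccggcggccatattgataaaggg
Batf: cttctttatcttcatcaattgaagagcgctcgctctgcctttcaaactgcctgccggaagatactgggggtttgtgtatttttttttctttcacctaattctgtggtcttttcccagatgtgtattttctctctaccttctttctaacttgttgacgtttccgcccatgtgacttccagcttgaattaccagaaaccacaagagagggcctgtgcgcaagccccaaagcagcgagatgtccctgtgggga

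The Cxcl2 window held 2 loose kB matches, GGAATTTCC and GGCTTTTCC, the first starting 96 bases before the TSS. The Nr1h2 window held 1 match, read as GGAACTACC on this strand and starting 104 bases before the TSS. The windows of Tgfb1, Nfkbib and Batf held no match, and that of Tgfb1 held 5 GC boxes (GGGCGG, either strand) at a G+C content of 75.2%. No match says only that these letters were not in this window.

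At the Cxcl2 promoter (chr5:91332623-91332999 in mm9) the signal was 57.9 RPKM for WT RelA and 51.5 RPKM for RelBko RelA. WT RelB was 15.8 RPKM at 0 h and 27.3 at 1 h, RelBko RelB 1.37 and 2.45, and input 2.41. RelB signal in RelBko was thus at the input level there, and both RelA libraries stood above both WT RelB libraries. The Tgfb1 promoter (chr7:26471829-26472198) gave 112 RPKM for WT RelA and 108 for RelBko RelA. Its WT RelB signal was 47.2 RPKM at 0 h and 53.8 at 1 h, its RelBko RelB signal 16.5 and 4.30, and its input 1.84. Here the RelB library of cells without RelB at 0 h kept signal well above input.

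The 2 other promoters with a short TSS distance showed the same order of libraries as Tgfb1. At Nr1h2 (chr7:51809245-51809606) WT RelA was 39.9 RPKM and RelBko RelA 36.6, against 12.2 and 16.9 for WT RelB at 0 and 1 h, 4.11 and 2.69 for RelBko RelB, and 1.26 for input. At Batf (chr12:87027284-87027852) the values were 24.7 and 23.9 RPKM for WT and RelBko RelA, 7.62 and 9.52 for WT RelB, 3.42 and 1.80 for RelBko RelB, and 0.666 for input. Nfkbib (chr7:29551322-29551683), whose member lay 161 bp past the TSS, had 63.4 and 51.8 RPKM of RelA in WT and RelBko. Its WT RelB was 36.2 RPKM at 0 h and 27.5 at 1 h, its RelBko RelB 7.90 and 3.26, and its input 1.89.

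Across the 4286 members the median signal was 8.58 RPKM for WT RelA and 6.48 for RelBko RelA. Median WT RelB was 2.51 RPKM at 0 h and 2.68 at 1 h, median RelBko RelB 1.38 and 1.02, and median input 0.989. Where RelA was within 2-fold of RelB, the medians were 10.9 and 11 RPKM for WT and RelBko RelA, 10.2 and 12.0 for WT RelB, 2.26 and 1.38 for RelBko RelB, and 1.09 for input. Members thus had lower medians in all 7 libraries than that set, with the widest gap in WT RelB. The median member had 2.66-fold more WT RelA than RelB, the ratio that chose it, and 707 members had 4-fold or more. In reads, the exact 95% interval of that ratio (Clopper-Pearson, counting error only) lay above 2 for 1924 members, which describes the counting error of the ratio that chose them.

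**Figure D1:**
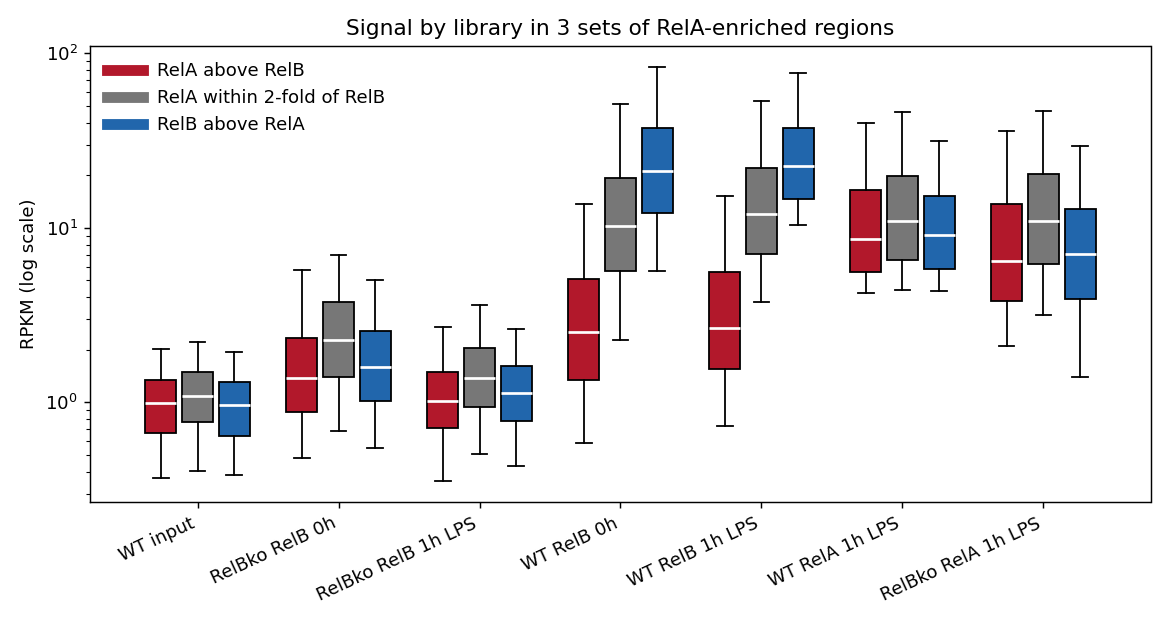
Signal in each of the 7 libraries (RPKM, log scale) for the 4286 members (red), the 52042 regions with RelA within 2-fold of RelB (grey) and the 2367 with RelB above RelA (blue). Boxes span the quartiles with the median as a white line and whiskers run from the 5th to the 95th percentile of regions. The members' WT RelB boxes lie far below the grey and blue ones, while the RelA boxes overlap.

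The order held in libraries that took no part in choosing the regions. RelBko RelA was at least 2-fold above WT RelB of 0 h in 2857 of 4286 members, or 66.7% (Wilson 95% interval 65.2% to 68.1%), against 15.5% of all regions. The share was 13.4% where RelA was within 2-fold of RelB and 1.01% where RelB was above RelA. The members' median log2 ratio was 1.28, against 0.02 over all regions, and it was above 0 in 4109 members. In reads, the interval of this ratio lay above 1 in 83.4% of members and in 31.0% of all regions. Scaling the libraries on regions without enrichment lowered the members' share to 43.0% and that of all regions to 8.58%. The 2 libraries differ in genotype and time as well as antibody, which cannot be told apart.

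**Figure D2:**
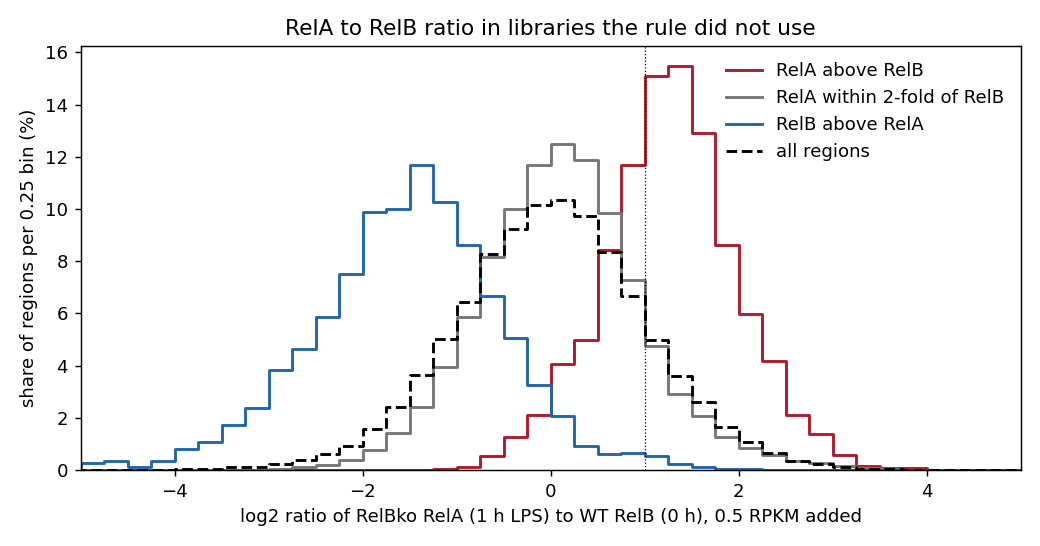
Distribution over regions of the log2 ratio of RelBko RelA at 1 h to WT RelB at 0 h (x axis, 0.5 RPKM added), as the percent of each set in bins of 0.25 (y axis). Members (red) centre on a log2 ratio of 1.28 and all regions (dashed) on 0.02, and the dotted line marks 2-fold.

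Most members still held RelA in cells without RelB. RelBko RelA was enriched (2 RPKM or more and 2-fold over input) in 3904 members, 91.1%, against 97.2% where RelA was within 2-fold of RelB and 75.9% of all regions. RelB of resting WT cells was enriched by the same rule in 2062 members, 48.1%, against 93.4% of the within-2-fold set and 75.9% of all regions. With the further demand of 2-fold over RelBko RelB at 0 h, 1234 members remained, 28.8%, against 84.3% of the within-2-fold set, 99.1% of regions with RelB above RelA and 65.8% of all regions. RelBko RelB, the RelB signal of cells labelled as lacking it, was enriched in 839 members at 0 h, 19.6% against 24.1% of all regions. At 1 h it was enriched in 170 members, 3.97% against 6.36% of all regions.

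RelA in RelBko was at least 2-fold below WT RelA in 388 members, 9.05% against 5.23% of all regions and 2.45% of the within-2-fold set. The share was higher where RelB was above RelA, at 477 of 2367 regions or 20.2%, so it was not particular to members. Members had been chosen for high WT RelA, so the choice itself favoured this direction. Their median log2 ratio of RelBko to WT RelA was −0.37, against −0.31 where RelB was above RelA and −0.07 over all regions. The RelBko library was at least 2-fold above WT RelA in 1 member against 1.32% of all regions. That member, an intron region assigned to Fam172a at 269734 bp from its TSS and named after its values were seen, had 78.5 RPKM in input and 2803 in RelBko RelB at 1 h. Its 238 RPKM of WT RelA and 555 of RelBko RelA came with 41.8 and 48.2 of WT RelB and 89.2 of RelBko RelB at 0 h, so every library was high there, the input included.

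By the deposited annotation, 627 members lay in promoters, 14.6% (Wilson 95% interval 13.6% to 15.7%). The share was 16.2% where RelA was within 2-fold of RelB, 2.58% where RelB was above RelA and 11% of all regions. Introns held 1797 members, 41.9%, and 1525, 35.6%, lay between genes. Exons held 127, or 2.96% against 1.74% of the within-2-fold set. Within 10 kb of a TSS lay 45.8% of members, against 44.7% of the within-2-fold set and 27.0% where RelB was above RelA. Members therefore stood close to the within-2-fold set and away from the RelB-high set in position.

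The promoter share of members rose with RelA level in a library that did not choose them. At 40 RPKM or more of RelBko RelA, 76 of 164 members lay in promoters, 46.3% (Wilson 95% interval 38.9% to 54.0%), against 637 of 3835 regions, 16.6%, of the within-2-fold set. At 20 to 40 RPKM the shares were 39.4% (187 of 475 members) and 21.1%. From 4 to 10 RPKM the order was the opposite, 8.51% of members and 12.4% of the others. At 40 RPKM or more, 86.6% of members lay within 10 kb of a TSS, against 49.8% of the within-2-fold set. In that top level the median of WT RelB at 0 h was 18.3 RPKM in members and 46.7 in the others, while RelBko RelB at 0 h was 6.83 and 6.49.

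**Figure D3:**
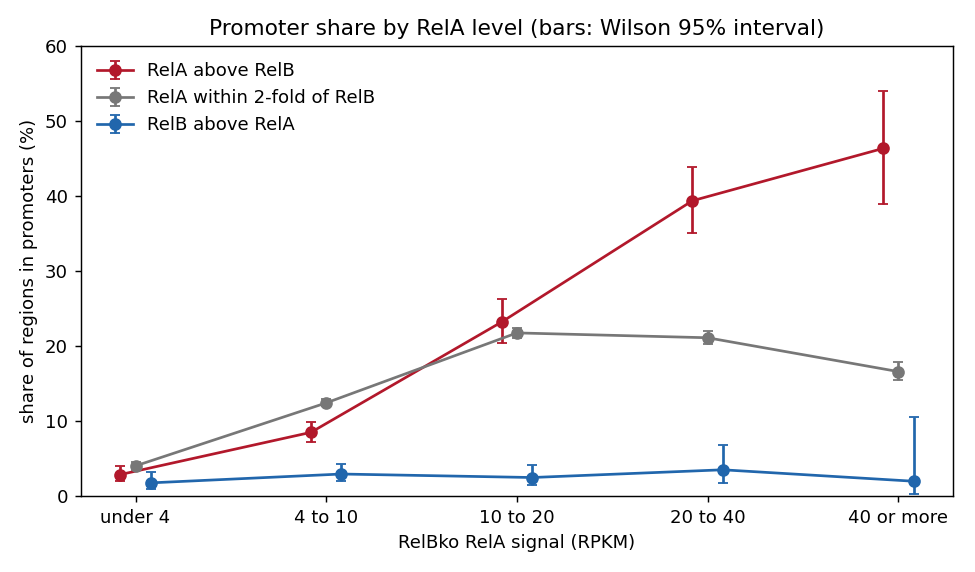
Share of regions in promoters (y axis, percent) by RelBko RelA signal (x axis, RPKM) for members (red), regions with RelA within 2-fold of RelB (grey) and regions with RelB above RelA (blue), with Wilson 95% intervals that cover counting error only. The red points climb to 46.3% while the grey points end at 16.6% and the blue points stay at 3.52% or less.

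Promoter members had more RelA than intron, intergenic or exon members. Their median was 18.8 RPKM for WT RelA, against 7.80, 7.40 and 10.3 in those classes, 17.5 for RelBko RelA, 6.37 and 7.0 for WT RelB at 0 and 1 h, and 3.27 for RelBko RelB at 0 h. RelBko RelA was at least 2-fold above WT RelB of 0 h in 75.6% of them, against 15.9% of all promoter regions. For intron, intergenic and exon members that share was 64.9%, 64.3% and 66.9%, against 16% (intron), 14.4% (intergenic) and 19.6% (exon) of all regions of the class. Over all members the share rose with RelBko RelA level, from 44.5% under 4 RPKM to 87.8% at 40 RPKM or more. Class and level were not separated. RelBko RelB at 0 h was enriched in 51.2% of promoter members and in 52.3% of all promoter regions, so signal in the RelB-deficient control was common at promoters in and outside the set, and its part in the WT RelB values was not tested.

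Promoter windows from RefSeq (250 bases before to 50 after the start) were matched to 305 of the 510 members within 200 bp of a TSS. Their median G+C content was 62%, with a median of 21 CpG per window, equal in G+C to the within-2-fold set (62%, 23 CpG) and above all 22862 RefSeq windows (52.3%, 7 CpG). GGNNNTTCC occurred in 24.9% of member windows, 25.6% of within-2-fold windows and 18.4% of all windows, either strand. Its stricter form GGAATTTCC, counted in it, occurred in 4 member windows, 1.31% (Wilson 95% interval 0.511% to 3.32%) against 0.544% of the within-2-fold set. The other strict form, GGGATTTCC, occurred in 1 member window, 0.328% against 0.703%. The AP-1 motif TGANTCA occurred in 2.30% of member windows (Wilson 95% interval 1.12% to 4.66%), against 5.05% of the within-2-fold set and 7.98% of all windows. GAGGAAGT, a form of the PU.1 site, occurred in 1.97% of member windows (interval 0.905% to 4.22%), 4.01% of the within-2-fold set and 3.32% of all windows. For GAAANNGAA, a core of interferon response elements, the shares were 4.92% (interval 3.00% to 7.95%), 7.30% and 8.62%. Both intervals include the share of the within-2-fold set. GC boxes occurred in 68.5% of member windows and 69.5% of within-2-fold windows, and CCAAT in 41.0% and 36.6%. The 76 member windows with GGNNNTTCC had a median RelBko RelA of 25.1 RPKM and the 229 without it 17.6. WT RelB at 0 h was also higher with a match, at 9.49 against 6.32 RPKM, as was RelBko RelB at 0 h, at 4.22 against 3.48. The median log2 ratio of RelBko RelA to WT RelB of 0 h was 1.38 with a match and 1.33 without.

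The strongest members belonged to genes of varied function. Among members within 100 kb of a gene, the highest RelBko RelA signal was assigned to Ccdc124, a ribosome-associated factor, at chr8:73389458-73389948, 7686 bp from its TSS. There WT RelA was 142 RPKM, RelBko RelA 128, WT RelB 36.9 at 0 h and 46.1 at 1 h, RelBko RelB 13.9 and 7.0, and input 1.85. RelBko RelA was 3.43-fold above WT RelB of 0 h at this region. Upstream of Esr1, the estrogen receptor alpha gene, a region at chr10:5744319-5744980 had 121 RPKM of WT RelA, 85.3 of RelBko RelA, 27.2 and 42.0 of WT RelB, 4.84 and 3.33 of RelBko RelB, and 0.573 of input. Its RelB signal at 1 h rested on 790 reads and its RelA signal on 1414. Cilp2, a cartilage matrix protein gene, had 3 regions within 100 kb and all 3 were members. Those at chr8:72390726-72391063 and chr8:72391219-72391388 were close neighbours, 20397 and 19988 bp from the TSS, and may not be separate sites.

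Cd83, a marker of mature dendritic cells, shows that a member can sit in a gene rich in RelB. Its promoter member (chr13:43880334-43880704) had 118 RPKM of WT RelA, 104 of RelBko RelA, 38.9 and 37.7 of WT RelB, 14.8 and 5.67 of RelBko RelB, and 1.84 of input. This was 1 member among 14 regions of Cd83. The gene's highest RelB region, at chr13:43873370-43873718 and 6937 bp upstream, had 161 RPKM of WT RelB at 1 h against 119 of WT RelA. The promoter was thus the only Cd83 region in the set, while WT RelA at 118 and 119 RPKM was alike at these 2 regions.

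Other strong promoter members were those of Prkcd, a protein kinase C, Gpbp1, a GC-rich promoter-binding factor, and Ccrl2, an atypical chemokine receptor of myeloid cells. WT RelA there was 99.99, 103 and 96.5 RPKM, RelBko RelA 92.3, 82.3 and 68.9, and WT RelB at 0 h 51.3, 41.1 and 38.1. RelBko RelA was 1.79, 1.99 and 1.80 times WT RelB at 0 h, below 2-fold in each. At the promoter of Mir762, by contrast, it was 4.36-fold, with 81.4 RPKM of RelBko RelA and 18.3 of WT RelB at 0 h.

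**Figure D4:**
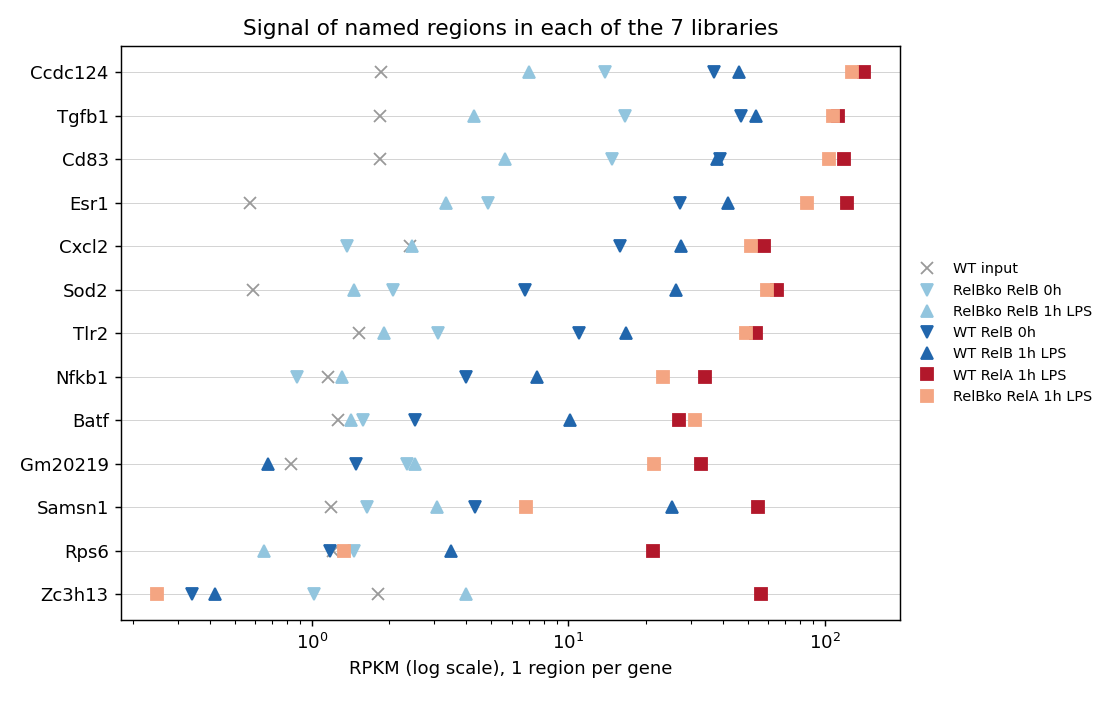
RPKM (x axis, log scale) of 13 member regions (rows, 1 per gene) in each of the 7 libraries. In the upper 10 rows both RelA libraries (squares) lie right of both WT RelB libraries (dark triangles), whereas at Samsn1, Rps6 and Zc3h13 the RelBko RelA square lies far left of the WT one. Rows were picked from regions ranked by RelBko RelA, by the rule's own ratio or by RelBko over WT RelA. The order shown is therefore a description.

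Of the 26 genes of NF-kB subunits, inhibitors, kinases and adaptors, 12 had a member within 100 kb, where 18% of all 18214 genes did. These were Nfkb1, Rela, Rel, Nfkbia, Nfkbib, Nfkbid, Nfkbiz, Tnfaip3, Tnip1, Tnip2, Cyld and Ikbke. Such genes carry many regions, and genes with many regions more often held a member, from 5.96% of genes with 1 region to 49.9% of those with 16 or more. Counted by region, 15 of 268 were members, 5.60% against 4.58% of all regions. RelB was above RelA in 12 of the 268, against 2367 of all 93611 regions. The lists were made with earlier results of these data known.

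Within Nfkb1, which encodes the main partner of RelA, an intron member (chr3:135333540-135333931) had 34.1 RPKM of WT RelA, 23.4 of RelBko RelA, 4.0 and 7.54 of WT RelB, 0.875 and 1.31 of RelBko RelB, and 1.16 of input. RelBko RelA was 5.32-fold above WT RelB at 0 h there. This was 1 of 3 members among the gene's 30 regions, and 2 others had RelB above RelA. The Rela member lay at the gene's transcription end, with 32.9 RPKM of WT RelA, 27.4 of RelBko RelA and 8.97 and 9.0 of WT RelB. At Tnfaip3, the gene of the feedback inhibitor A20, the member with more RelBko RelA, of 2 among 26 regions, had 13.1 RPKM of WT RelA, far under the 131 RPKM of its promoter region, which was no member.

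Of 35 measured inflammatory cytokine and chemokine genes, 8 had a member (Il1a, Il1b, Csf1, Csf3, Il1rn, Cxcl1, Cxcl2 and Cxcl3), where 18% of all genes did. By region 13 of 274 were members, 4.74%, near the 4.58% of all regions. Near Il1a, which encodes the cytokine IL-1 alpha, a member 1762 bp upstream had 26.5 RPKM of WT RelA, 25.5 of RelBko RelA, 5.01 and 9.49 of WT RelB, and 0.849 and 0.889 of RelBko RelB. The gene's highest RelB region, 10264 bp upstream, had 142 RPKM of WT RelB at 1 h and 114 of WT RelA and was no member. The Csf1 member with the highest RelBko RelA had 20.0 RPKM of WT RelA, 12.1 of RelBko RelA and 4.13 and 2.91 of WT RelB. Csf1 encodes the macrophage growth factor M-CSF.

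Of 36 interferon genes 5 had a member (Ifit2, Oas1a, Oasl1, Oasl2 and Dhx58), where 18% of all genes did. By region 5 of 149 were members, 3.36% (Wilson 95% interval 1.44% to 7.61%), an interval that includes the 4.58% of all regions. The highest RelBko RelA among these members, at Oas1a, was 8.52 RPKM. Of 31 maturation genes 4 had a member (Cd83, Fscn1, Cd70 and H2-Aa). Their 245 regions held 5 members, 2.04% (Wilson 95% interval 0.875% to 4.69%), an interval that still reaches the 4.58% of all regions. RelB was above RelA in 8 of the 245, against 2367 of all 93611 regions. At the promoter of H2-Aa, an MHC class II chain, WT RelA was 29.1 RPKM, RelBko RelA 24.4 and WT RelB 14.1 and 12.7.

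Stress and survival genes had members at 17 of 234 regions, 7.26% (Wilson 95% interval 4.59% to 11.3%), against 4.58% of all regions, just under that interval. The members lay in 9 of 24 genes, where 18% of all genes had one: Bcl2, Bcl2l11, Cflar, Gadd45a, Sod2, Nos2, Ddit3, Slc7a11 and Fth1. In Sod2, the mitochondrial superoxide dismutase gene, the intron member (chr17:13202927-13203312) had 64.9 RPKM of WT RelA and 59.2 of RelBko RelA. WT RelB was 6.80 RPKM at 0 h and 26.3 at 1 h, RelBko RelB 2.07 and 1.46, and input 0.589. RelB after LPS was thus above resting RelB at Sod2, yet below both RelA libraries. The Ddit3 member, in the gene of the stress factor CHOP, had 36.8 RPKM of WT RelA, 24.8 of RelBko RelA and 9.03 and 8.74 of WT RelB.

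Among LPS sensing and signalling genes, 8 of 29 had a member (Tlr2, Cd14, Irak2, Irak3, Map3k7, Map3k8, Mapkapk2 and Peli1), where 18% of all genes did. By region 13 of 230 were members, 5.65% (Wilson interval 3.33% to 9.43%), an interval that includes the 4.58% of all regions. Tlr2, a receptor for bacterial lipoproteins, had 4 members among 18 regions. The member named, 33646 bp upstream of the gene, had 53.8 RPKM of WT RelA, 49.2 of RelBko RelA, 11 and 16.7 of WT RelB, 3.11 and 1.91 of RelBko RelB, and 1.52 of input. Irak2 and Irak3 encode a positive and a negative regulator of Toll-like receptor signalling. Their members had 25.6 and 25.3 RPKM of WT RelA, 23.1 and 22.0 of RelBko RelA, and 2.62 and 4.64 of WT RelB at 0 h.

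Of 31 immediate early genes 12 had a member, where 18% of all genes did. By region 17 of 310 were members, 5.48% (Wilson interval 3.45% to 8.61%), an interval that includes the 4.58% of all regions. At Egr2, a zinc-finger factor gene, WT RelA was 38.8 RPKM, RelBko RelA 39.2 and WT RelB 14.5 and 18.3. Nr4a1, an orphan receptor gene also in the circadian and nuclear receptor list, had 21.6 and 21.4 RPKM of RelA and 3.99 and 10.1 of WT RelB. That list had 11 members among 161 regions, 6.83% (Wilson interval 3.86% to 11.8%), in Per2, Nr3c1, Pparg, Nr1h2, Rxra, Vdr and Nr4a1. The interval of this list includes 4.58% too. Myeloid and dendritic cell lineage genes had 14 of 356, 3.93%. Housekeeping genes, a control list, had 4 of 122, 3.28%, and the intervals of both lists also include 4.58%.

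Batf, of the lineage list, held 5 members among 14 regions. Its intron member (chr12:87044446-87044806) had 26.9 RPKM of WT RelA, 31.2 of RelBko RelA, 2.53 and 10.1 of WT RelB, 1.58 and 1.42 of RelBko RelB, and 1.26 of input, and RelBko RelA was 10.5-fold above WT RelB of 0 h. A neighbouring intron region of Batf had 61.3 RPKM of WT RelB at 1 h and 61.8 of WT RelA and was no member. A330074K22Rik and Clmp held the most members, 6 each, among 15 and 18 regions, and Tmem2 held 5 among 13. At Clmp the members' RelBko RelA was 2.96 to 5.47 RPKM, so a high number of members did not need strong ones.

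Markers of other cell types gave small counts. Neutrophil markers had 5 members among 44 regions, 11.4% (Wilson 95% interval 4.95% to 24.0%) against 4.58% of all regions, in Camp, S100a8, S100a9, Mmp8 and Ly6g. S100a9 had 18.2 RPKM of WT RelA, 18.5 of RelBko RelA and 5.67 and 6.30 of WT RelB. WT RelA was 15.2 RPKM at Camp, and 4.88 at Mmp8 and 4.50 at S100a8, near the minimum of 4 RPKM. T and NK cell markers had 4 of 86, 4.65%, B cell markers 0 of 32 and erythroid and mast cell markers 0 of 25, where upper Wilson bounds were 10.7% and 13.3%. Over all lists, 85 of 330 measured genes had a member, 25.8% against 18% of all genes. Genes with more regions more often held one, 22.2% of those with 4 to 7 regions and 33.6% of those with 8 to 15. The listed genes were not matched to all genes in number of regions.

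RelBko RelA was at least 2-fold above WT RelB of 0 h in 66.7% of all members and 15.5% of all regions, and the lists are read against these shares. It was so in 10 of 15 members of the NF-kB list, 9 of 13 of the cytokine list, 3 of 5 of the interferon list and 3 of 5 of the maturation list. The counts were 14 of 17 for immediate early genes, 12 of 17 for survival and stress genes, 11 of 13 for LPS sensing genes and 8 of 14 for lineage genes. They were 8 of 11 for circadian and nuclear receptor genes, 3 of 4 for housekeeping genes, 3 of 5 for neutrophil markers and 3 of 4 for T and NK cell markers. Control lists and inflammatory lists thus gave shares on both sides of that of all members.

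**Figure D5:**
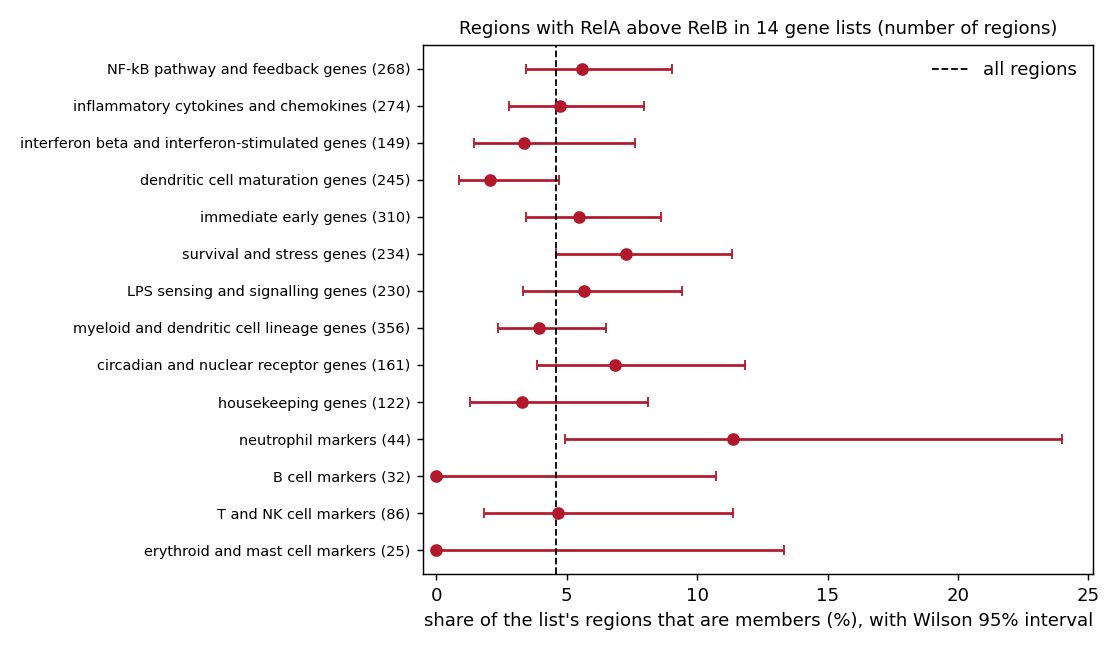
Share of each list's regions that are members (x axis, percent, with Wilson 95% intervals for counting error) for 14 gene lists (rows, number of regions in brackets). The dashed line marks the 4.58% of all regions, which every interval includes except those of neutrophil markers and of survival and stress genes.

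Samsn1, which encodes an adaptor protein of blood cells, combined members with a low RelA signal in RelBko. Of its 4 members among 15 regions, the 3 in introns had 54.9, 50.9 and 45.1 RPKM of WT RelA and 6.85, 8.35 and 6.91 of RelBko RelA, log2 ratios of −2.92, −2.54 and −2.62. At the first (chr16:75896421-75896804) WT RelB was 4.31 RPKM at 0 h and 25.3 at 1 h, RelBko RelB 1.64 and 3.07, and input 1.18. Another intron region, which was no member, had 77.5 RPKM of WT RelA, 62.9 of WT RelB at 1 h and 21.3 of RelBko RelA. The gene's promoter region had 19.6 RPKM of WT RelA and 21.8 of RelBko RelA, and a region 8564 bp upstream 69.2 and 62.6. A further intron region, at chr16:75872495-75872822, had 18.4 RPKM of WT RelA and 21.4 of RelBko RelA. RelA was thus lower in RelBko at 4 intron regions and near its WT level at the other intron region, the promoter and the upstream region, in 1 library per genotype.

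At 2 exon members RelBko RelA was also far below WT RelA. At Zc3h13 (chr14:75721377-75721544), the member with the largest ratio, WT RelA was 56.5 RPKM, RelBko RelA 0.248, WT RelB 0.340 and 0.419, RelBko RelB 1.02 and 3.97, and input 1.81. Its RelB value rested on 2 reads and its ratio of reads, 135, had an interval of 36.8 to 1123. The exon of Rps6, a ribosomal protein gene, had 21.4 RPKM of WT RelA and 1.33 of RelBko RelA, with 1.18 and 3.47 of WT RelB at 0 and 1 h, 1.46 and 0.653 of RelBko RelB, and 1.21 of input. At Gm20219, second in ratio, both RelA libraries were high, with 32.8 and 21.6 RPKM against 1.48 and 0.673 of WT RelB and 2.34 and 2.52 of RelBko RelB. Among members of 10 RPKM or more within 100 kb of a gene, which leaves out the Fam172a region, RelBko RelA was highest relative to WT RelA at Gfi1, a transcriptional repressor of myeloid cells, with 25.3 against 15.1 RPKM.

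Of 4286 members, 3454 had some other region within 10 kb and 645, 15%, had another member there. Among all regions within 10 kb of a member, counted as pairs, 9.24% were members, against 4.58% of all regions. The latter share counts regions that failed the RelA conditions, which 58695 regions met. Pairs count a region once for each member near it. Some neighbouring members lay nearly end to end, as at Pign (chr1:107559791-107559960 and chr1:107559963-107560306). Regions with RelA within 2-fold of RelB that lay within 10 kb of a member had RelBko RelA at least 2-fold above WT RelB of 0 h in 16.1%, against 13.2% of those farther away. By chromosome, 49 of 2399 regions on X were members, 2.04% (Wilson 95% interval 1.55% to 2.69%). The share was highest on chromosomes 8 and 17, at 5.66% and 5.575%. Only 1126 regions on X met the first 2 conditions. Of the regions that met them, 4.35% on X, 8.89% on chromosome 8 and 8.47% on chromosome 17 were members. The other chromosomes lay between 6.31% (chromosome 1) and 7.84% (chromosome 7), and members were 4286 of all 58695 such regions.

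At the limit on the ratio, the promoter of Scamp3 was just inside at 2.0004-fold, with 24.7 RPKM of WT RelA and 12.1 of WT RelB at 1 h. A region of the intron class assigned to Gm31641, 13646 bp upstream of its TSS, was just outside at 1.9995-fold, with 15 and 7.25. At the minimum of 4 RPKM, Slc45a1 was inside at 4.001 and Abcc5 outside at 3.999. A further 2183 regions met both fold conditions below that minimum, and 4 failed by the input condition alone. Of the members, 2695 had a ratio under 3 and 2009 had WT RelA under 8 RPKM.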

How the data were processed

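Binding was measured by ChIP-seq in 7 libraries. Per the file headers, the authors deposited RPKM values for each library over 93611 regions with their nearest gene, distance to its TSS and annotation class. The build mm9 and the tools HISAT2, HOMER and bedtools come from the submitters' processing notes, and the tools' versions and roles and the choice of regions were not given in the sources used here. In every library RPKM times region length gave whole multiples of 1 read (100% of values within 0.01 read), from which reads and library totals were recovered. No value lay under 1 read, so recovered reads may be 1 too high.

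Ratios used RPKM plus 0.5, which understates the change of weak regions. Enriched means 2 RPKM or more and 2-fold over input. With 1 library per group no test was possible, and intervals cover counting error only, as reads lacked molecular identifiers. Members, lists and the rule for named regions were chosen with earlier results of these data known. Named were the strongest members by either RelA library, the largest ratios, the genes with most members, up to 4 genes per list by RelBko RelA, the extremes of RelBko over WT RelA, of RelB and of input, and the regions nearest each limit, all within 100 kb of the gene. Values that ranked a region are a description. The extraction text names the RelA antibody alone, and antibodies were taken from each sample's own label. RefSeq promoters (GRCm38.p6) were matched by symbol where a gene had 1 entry. Python 3.11.15, pandas 2.3.3, numpy 2.4.6 and scipy 1.17.1 were used, and the calculation was tested on simulated data.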

Additional observations from a re-analysis of the deposited data

How the results depend on the processing

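Under 13 alternatives, 30 of 57 recomputed values stayed within 1.5 times the reported count or within the interval of the reported share, and 27 moved. The number of members, 4286, became 2277 with a RelA minimum of 8 RPKM, 1591 with 3-fold over RelB and 1924 with the interval's lower bound at 2 or more. It became 10309 with RelBko RelA and WT RelB of 0 h in the rule, an alternative chosen after seeing the data, and 2328 of those were members, 22.6% of that set and 54.3% of the members. The promoter share, 14.6%, became 23.0% at the 8 RPKM minimum, 11.2% at 2 RPKM, 10.1% at 3-fold and 16% with each library's median ratio to WT RelA set to 1. The share with RelBko RelA at least 2-fold above WT RelB of 0 h, 66.7%, was 69.5% and 62.8% with 0.1 and 1 RPKM added, 62.0% with median ratios of 1, 43.0% with scaling on regions without enrichment, 75.9% and 57.8% at the 8 and 2 RPKM minimum, 80.3% at 3-fold and 81.0% with the lower bound. The share enriched for RelBko RelA, 91.1%, was in the same order 93.0%, 87.3%, 93.2%, 86.4%, 99.3%, 73.4% and 88.2% (3-fold), and 92.6% with 1 read taken off every value. Listed genes with a member, 85, fell to 34 at 3-fold, 44 with the lower bound and 45 within 10 kb of the TSS. Scaling on regions without enrichment shifted RelBko RelA by a log2 value of −0.22 and WT RelB of 0 h by 0.22. The cause of these moves was not tested, except that stricter limits keep fewer regions by construction. Dropping the input condition or regions with high input moved no value beyond its limit. Reads limit the weak members, of which 32 had 3 reads or fewer in WT RelB at 1 h. No paired analysis was possible because each group held 1 library.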
